A study of Mus musculus with 7 samples.

Results

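The cytochrome P450 monooxygenases of families 1 to 3 are enzymes of the liver endoplasmic reticulum that oxidise drugs, pollutants and other foreign compounds, and many of them also act on steroids, bile acids, retinoids and arachidonic acid. Each enzyme holds a heme group and takes its electrons from NADPH through P450 oxidoreductase (Por), so the members depend on a common reductase and a common heme supply. Transcription of these genes is set in large part by ligand-activated receptors, mainly the aryl hydrocarbon receptor (Ahr) for the Cyp1 genes, and the constitutive androstane receptor CAR (Nr1i3) and the pregnane X receptor PXR (Nr1i2) for Cyp2b, Cyp2c and Cyp3a genes. In mouse liver many members are concentrated around the central vein, and several differ between the sexes.

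The members were all genes whose name on the array was Cyp followed by 1, 2 or 3, a single subfamily letter and a number, whatever their measured values. There were 52 such genes among 36413 gene names, with 68 probes between them. The subfamilies with most members were Cyp2c (13 genes), Cyp2d (9), Cyp3a (7), Cyp2b (5) and Cyp2j (4).

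Livers were compared between 3 wild-type (WT) and 4 SHIVA mice, with 1 single-colour Agilent array per mouse. SHIVA mice carry a chemically induced T to G change in Sox17 that replaces a methionine with arginine in the DNA-binding HMG domain of this transcription factor; viable carriers are heterozygous, and SHIVA females are sterile. Mice of both genotypes were females on the C57BL/6 background, 8 to 12 weeks old, and all had been fasted for 24 h, so no fed liver enters the comparison. Throughout, levels are log2 intensities after quantile normalization over the 7 arrays, a log2 fold change is the SHIVA mean minus the WT mean, and a gene was called when limma's adjusted p over all genes tested was under 0.05.

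All 7 arrays were on 1 slide, with the WT mice in its first row and the SHIVA mice in its second, so slide position cannot be told apart from genotype. The share of probes well above background ran from 44.49% to 48.75% per array, and 0 spots were saturated. Sox17 itself read 4.53, 3.42 and 3.93 in WT and 4.63, 4.47, 4.77 and 4.71 in SHIVA mice, which does not check the genotype labels because a point mutation leaves the transcript in place. The 6 hepatocyte markers were above background on all 7 arrays, and their summed signal spanned 19.78 to 19.84 on the log2 scale in WT and 19.71 to 19.92 in SHIVA mice. Singly, 4 had log2 fold changes above 0 and 2 below, and none was called. They ran from -0.32 for Ttr, with separate ranges, to 0.38 for Tat. The pancreatic genes Cela1, Pnlip and Prss1 and the adipocyte genes Adipoq and Plin1 were too dim to be tested.

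The letters of a few probes are shown because P450 genes arose by tandem duplication and resemble each other, so that what a probe can bind bears on each value. All members were read by probes of 60 bases. The probes below are those of Cyp2d9, of Cyp2d34 on the same chromosome, of Cyp3a11 and of Cyp2c37. Cyp2d9 had the smallest adjusted p among the members. The letters are written 5′ to 3′ as the array design gives them. Capitals mark the 17 bases that the Cyp2d9 and Cyp2d34 probes have in common.
Cyp2d9: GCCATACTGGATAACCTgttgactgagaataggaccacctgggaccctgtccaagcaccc
Cyp2d34, lower-signal probe: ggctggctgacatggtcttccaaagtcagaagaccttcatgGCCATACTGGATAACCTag
Cyp3a11: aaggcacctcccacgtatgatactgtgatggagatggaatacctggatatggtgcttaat
Cyp2c37, lower-signal probe: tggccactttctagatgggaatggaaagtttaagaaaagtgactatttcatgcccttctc
In the mm9 build given by the array design, the Cyp2d9 probe lies at chr15:82285582-82285641 on the plus strand and the Cyp2d34 probe at chr15:82447966-82448025 on the minus strand. The Cyp3a11 probe spans chr5:146672058-146673925 on the minus strand, more than its own length, so it crosses an intron. The lower-signal Cyp2c37 probe lies at chr19:40084382-40084441 on the plus strand. The design's transcript positions put their first bases at 828, 762, 1104 and 1242. Among the 52 probes that stood for the members, those of Cyp2c67 and Cyp2c68 share a run of 25 bases. Transcripts of another P450 gene are listed as well by 5 of the 52. The Cyp3a11 probe lists Cyp3a41a, Cyp3a41b and Cyp3a44, that of Cyp2a4 lists Cyp2a5, that of Cyp2c66 lists Cyp2c65, that of Cyp2c68 lists Cyp2c40 and Cyp2c69, and that of Cyp2j13 lists Cyp2j12. On these probes the values of the 5 genes are therefore of a pair or group of paralogues that the probe does not separate. The second Cyp3a11 probe lists no other gene.

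Of the 52 members, 46 were expressed above background on at least 3 arrays and were tested. The other 6 were Cyp1a1 and Cyp1b1, which activate polycyclic hydrocarbons, and Cyp2b19, Cyp2b23, Cyp2c65 and Cyp2w1. Cyp1b1 was well above background in 1 SHIVA mouse, and the remaining 5 genes were not well above background on any array. Of the 52 members, 44 were well above background on all 7 arrays.

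No member was called in either direction, against 0.375% of all 19974 genes tested (0.185% higher and 0.19% lower in SHIVA mice). At an unadjusted p under 0.05 there were 10 members, a share of 21.7% beside 13.3% of all genes tested. Of these, 7 were lower and 3 higher in SHIVA mice, directions that 6.08% and 7.24% of all genes took at that threshold. The unpaired test named in the study's methods gave 9 members (19.6%) under the same unadjusted threshold, beside 11.5% of all genes, and 0 after adjustment. WT and SHIVA values did not overlap for 7 members, or 15.2% of those tested, beside 12.2% of all genes. Among these 7, Cyp2d9, Cyp2a22, Cyp2c37, Cyp2e1 and Cyp2d13 were lower in every SHIVA mouse than in any WT mouse, and Cyp2c55 and Cyp3a13 were higher. Over all genes, 6.02% were lower and 6.14% higher without overlap. Over the tested members the median log2 fold change was -0.07, with a range of -1.16 to 1.097, beside a median of -0.01 over all genes. The log2 fold change was below 0 for 27 of the 46 (58.7%), beside 51.2% of all genes. The 95% confidence interval lay within 1 log2 unit either way for 32 members and within 0.5 for 6, with a median half-width of 0.488. In whole liver, fewer cells of a type and less RNA per cell cannot be told apart.

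**Figure D1:**
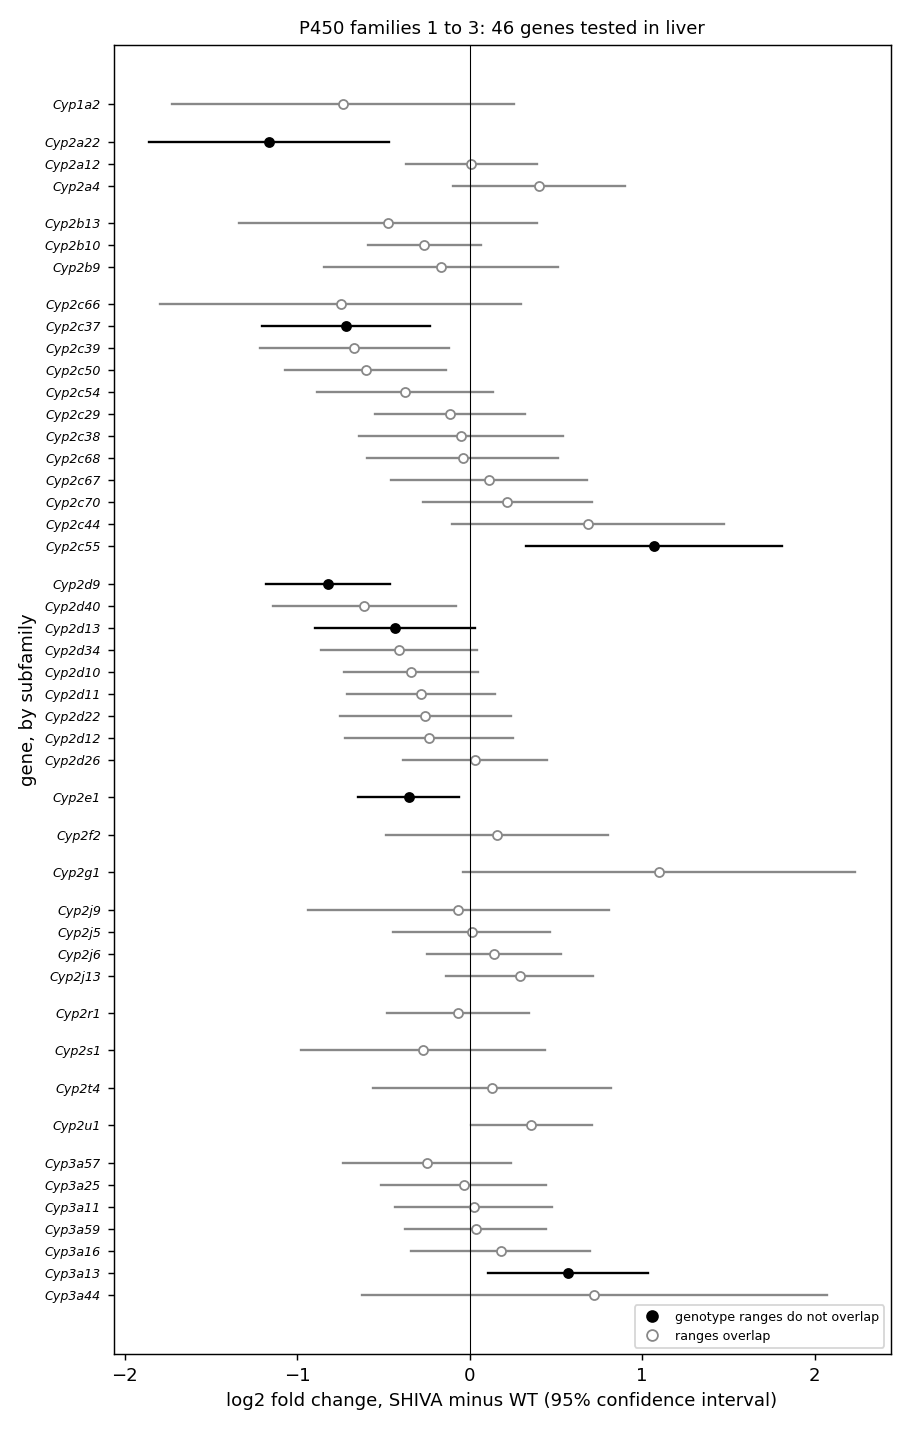
Log2 fold change (SHIVA minus WT, x axis) of the 46 tested P450 genes, grouped by subfamily on the y axis, with 95% confidence intervals from limma; filled points mark the 7 genes whose WT (n = 3) and SHIVA (n = 4) values do not overlap. Of the 9 Cyp2d genes, 8 lie left of 0, while the Cyp3a genes lie around 0 apart from Cyp3a13 and Cyp3a44.

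Cyp2d9, a steroid 16-alpha-hydroxylase that is known for higher expression in male than in female mouse liver, had the smallest adjusted p of the members. Its level was 11.63, 12.01 and 12.06 in the WT mice and 11.03, 11.01, 11.04 and 11.23 in the SHIVA mice. Every SHIVA mouse lay below the lowest WT mouse, and 3 of the 4 lay within a few hundredths of each other. The log2 fold change was -0.82 (SE 0.158), a WT level 1.77 times that of SHIVA mice, with an adjusted p of 0.0857. The call depended on the signal used. Limma's adjusted p was 0.0237 on the mean spot signal, 0.0299 after normexp background correction and 0.0259 in the authors' deposited table of log2 values. These are not separate checks, since the normexp values start from the same mean spot signal. The deposited table gave nearly the log2 fold change of the mean signal (-0.856 beside -0.858). Under all 17 alternatives the log2 fold change kept its sign, between -0.96 and -0.74.

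The Cyp2d genes, a cluster on chromosome 15 whose human counterpart CYP2D6 handles many basic drugs, were mostly on the same side of 0. All 9 were tested, 8 had log2 fold changes below 0, and the median was -0.34. Cyp2d13 read 9.32, 9.27 and 9.79 in WT and 9.12, 8.63, 9.26 and 9.10 in SHIVA mice, a log2 fold change of -0.43 (SE 0.203) with an adjusted p of 0.408, and it was -0.27 without WT mouse 3. The highest SHIVA value was separated from the lowest WT value by a narrow margin. Cyp2d40 had a log2 fold change of -0.61 (adjusted p = 0.305), with overlapping ranges. Cyp2d26 was the only tested gene of the cluster above 0, at 0.03. The values of the 5 others lay between -0.41 and -0.24. Cyp2d34 was read by a pair of probes that disagreed in size: the probe with the higher signal gave -0.41, and the other, whose letters are shown above, gave -1.98. On that second probe the WT mice read 5.73, 6.07 and 5.13 and the SHIVA mice 2.93, 4.88, 2.81 and 4.03. The ranges of the genotypes were separate on this probe, but it was well above background in only 2 of the 4 SHIVA mice.

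The Cyp2c genes, many of which make epoxides from arachidonic acid, differed in direction. Of 13 members on chromosome 19, 12 were tested, 8 with log2 fold changes below 0 and 4 above, and their median was -0.08. Leaving aside Cyp2c66, whose probe was near background, they ranged from -0.72 to 1.07. Cyp2c37 read 13.47, 13.98 and 14.32 in WT and 13.15, 13.13, 13.10 and 13.44 in SHIVA mice. SHIVA mouse 4 came just below WT mouse 1, and the other SHIVA mice lay further below. This gave a log2 fold change of -0.72 (SE 0.213, adjusted p = 0.225), and the second probe, shown above, gave -0.60 with overlapping ranges. The genes next to it, Cyp2c54 and Cyp2c50, had log2 fold changes of -0.37 and -0.60 (adjusted p of 0.259 for Cyp2c50), and the next along the chromosome, Cyp2c70, the bile acid hydroxylase that makes muricholic acids, was at 0.22. Cyp2c39, which can hydroxylate retinoic acid, was at -0.67 (adjusted p = 0.280).

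At one end of the same cluster, Cyp2c55 stood on the other side of 0. It is known as a gene of the colon that xenobiotics induce in liver. The WT mice read 6.41, 5.25 and 6.61 and the SHIVA mice 7.07, 7.56, 7.10 and 6.90. All SHIVA mice were above the highest WT mouse, and WT mouse 2 lay more than a log2 unit under the other WT mice. The log2 fold change was 1.07 (SE 0.325), a 2.09-fold higher level in SHIVA mice, with an adjusted p of 0.233; without WT mouse 2 it was 0.64, and with normexp correction 0.61. Cyp2c44, an epoxygenase that lies apart from the cluster on the same chromosome, had a log2 fold change of 0.69 (adjusted p = 0.445), which was 0.28 without WT mouse 1 and 1.08 without WT mouse 3, while Cyp2c29, Cyp2c38, Cyp2c67 and Cyp2c68 lay between -0.11 and 0.11. The second Cyp2c38 probe, above background on all 7 arrays, gave -0.73, and the mean of both probes -0.39.

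**Figure D2:**
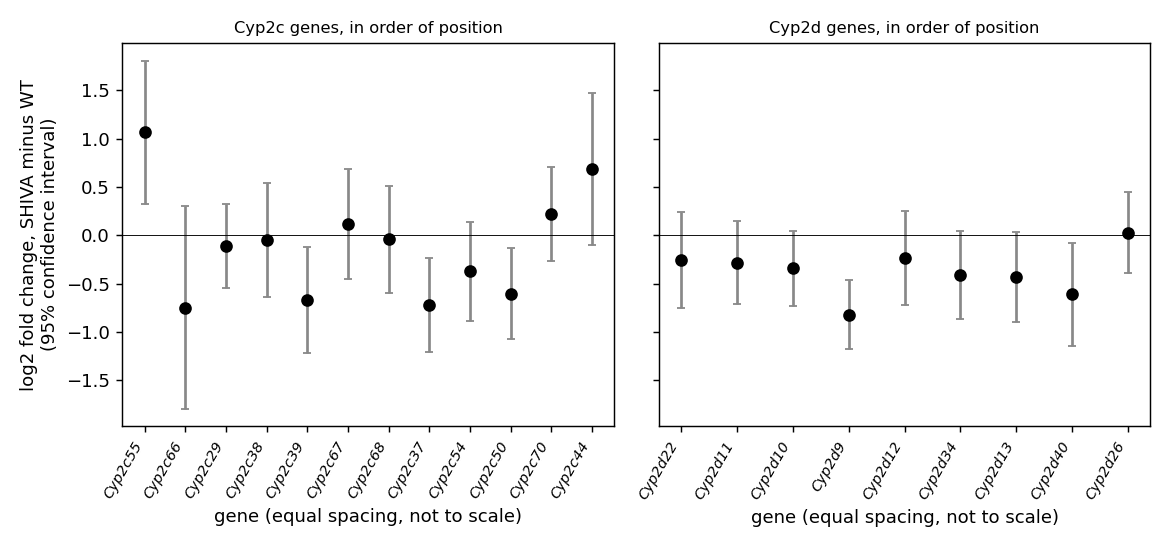
Log2 fold change (SHIVA minus WT, y axis, with 95% confidence intervals) of the tested Cyp2c genes of chromosome 19 and the Cyp2d genes of chromosome 15, in their order along the chromosome and not to scale. Cyp2c37, Cyp2c54 and Cyp2c50 are neighbours at -0.72, -0.37 and -0.60, and Cyp2c55 at the left end is at 1.07.

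The members of the pericentral zone were described as a group fixed by name. Of 9 listed genes, 8 were on the array under those names and all 8 were tested. Of these, 7 had log2 fold changes below 0, the median was -0.36, and none was called. The listed gene without a row of its own was Cyp2a5. Both Cyp2a4 probes list it beside Cyp2a4, and they were above 0, at 0.40 and 0.37. Cyp2e1, the enzyme that oxidises ethanol and small solvents, read 17.55, 17.59 and 17.65 in WT and 17.28, 17.25, 17.15 and 17.30 in SHIVA mice. The spread within each genotype was small (SD 0.0502 in WT and 0.0649 in SHIVA mice) and the ranges were separate. The log2 fold change was -0.355 (SE 0.127, adjusted p = 0.280), a WT level 1.28 times that of SHIVA mice. The second probe gave -0.53, again with separate ranges. Cyp1a2, which metabolises caffeine and is under Ahr control, read 11.46, 12.19 and 13.27 in WT and 11.59, 10.79, 11.96 and 11.93 in SHIVA mice. Its WT mice spread widely and their range enclosed 3 of the 4 SHIVA values, and the log2 fold change of -0.74 (SE 0.436) had an adjusted p of 0.522. It was -1.16 without WT mouse 1 and -0.25 without WT mouse 3. The periportal gene Cyp2f2, known for activating naphthalene, was at 0.16.

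Genes that CAR and PXR induce were not all on the same side of 0. All 7 listed members were tested, 5 below 0 and 2 above, with a median of -0.26. Below 0 were Cyp2b10, Cyp2c29, Cyp2c37, Cyp2c50 and Cyp2c54, and above 0 were Cyp2c55 and Cyp3a11. This list shares Cyp2c29, Cyp2c37, Cyp2c50, Cyp2c54 and Cyp3a11 with the pericentral list, so the lists are not separate results. Cyp2b10, the classical CAR target, read 14.13, 14.44 and 14.25 in WT and 14.04, 14.13, 13.90 and 13.97 in SHIVA mice. SHIVA mouse 2 slightly exceeded WT mouse 1, and the log2 fold change was -0.26 (SE 0.143, adjusted p = 0.482). Cyp3a11, the main PXR target among mouse Cyp3a genes, read 14.96, 15.28 and 15.50 in WT and 15.07, 15.31, 15.07 and 15.63 in SHIVA mice. Its log2 fold change was 0.02, with a 95% confidence interval of -0.43 to 0.48, and its second probe gave 0.03. The other Cyp2b genes tested, Cyp2b13 and Cyp2b9, were at -0.47 and -0.17; without WT mouse 3 they were at -0.08 and 0.15.

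The Cyp3a genes, whose enzymes take many large drugs and steroids, had a median log2 fold change of 0.03 over 7 members, 5 of them above 0. Cyp3a13 read 11.17, 11.37 and 10.92 in WT and 12.08, 11.87, 11.44 and 11.50 in SHIVA mice. The lowest SHIVA mouse was just above the highest WT mouse, and the log2 fold change was 0.57 (SE 0.203, adjusted p = 0.277), or 0.40 with overlapping ranges on the second probe. Cyp3a44, known as a female-predominant gene, was at 0.72 with a 95% confidence interval of -0.63 to 2.07, and between 0.34 and 1.05 with a mouse left out. Its level was 10.14 and 10.48 in SHIVA mice 1 and 3 but 8.33 and 8.34 in SHIVA mice 2 and 4, and WT mice 2 and 3 were above the latter. Of 8 listed genes known to be higher in female liver, 5 were on the array under those names and tested, with a median of 0.18. Of these, 3 were above 0 (Cyp3a44, Cyp2a4 and Cyp3a16) and 2 below, Cyp2b13 at -0.47 and Cyp2b9 at -0.17. Cyp2a4, a steroid 15-alpha-hydroxylase, was at 0.40 on its main probe (adjusted p = 0.480) and at 0.37 on the second probe. Both probes also list Cyp2a5, so neither separates these genes. Without WT mouse 1 the main probe gave 0.19, and without WT mouse 3 it gave 0.63.

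The 3 members with an absolute log2 fold change of at least 1 (beside 2.92% of all genes tested) were Cyp2c55 and 2 others, Cyp2a22 and Cyp2g1. This set depended on the signal used, since on the mean signal, after normexp correction and in the deposited table none of the 3 reached 1. Cyp2a22 lay between -0.88 and -0.70, Cyp2c55 between 0.61 and 0.76, and Cyp2g1 between 0.77 and 0.90. The mean signal had no background correction and normexp added an offset of 50, and both make log2 fold changes of dim probes smaller. How much of the change in these 3 genes came from this was not tested. Cyp2a22 read 6.53, 6.21 and 7.25 in WT and 5.45, 5.85, 4.90 and 5.80 in SHIVA mice. All SHIVA values were below all WT values, with a log2 fold change of -1.16 (SE 0.305, adjusted p = 0.183). Its subfamily neighbour Cyp2a12 was at 0.01. Cyp2g1, a gene best known from the olfactory mucosa, read 6.85, 6.36 and 8.75 in WT and 8.71, 8.03, 8.44 and 8.48 in SHIVA mice. WT mouse 3 lay above every SHIVA mouse, whereas the other WT mice lay more than a log2 unit below them. The difference of 1.097 (SE 0.499) had an adjusted p of 0.394, and it moved with the WT mice, to 0.62 without WT mouse 2 (adjusted p = 0.780) and to 1.81 without WT mouse 3 (adjusted p = 0.0175), the only call among the members when a mouse was left out.

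**Figure D3:**
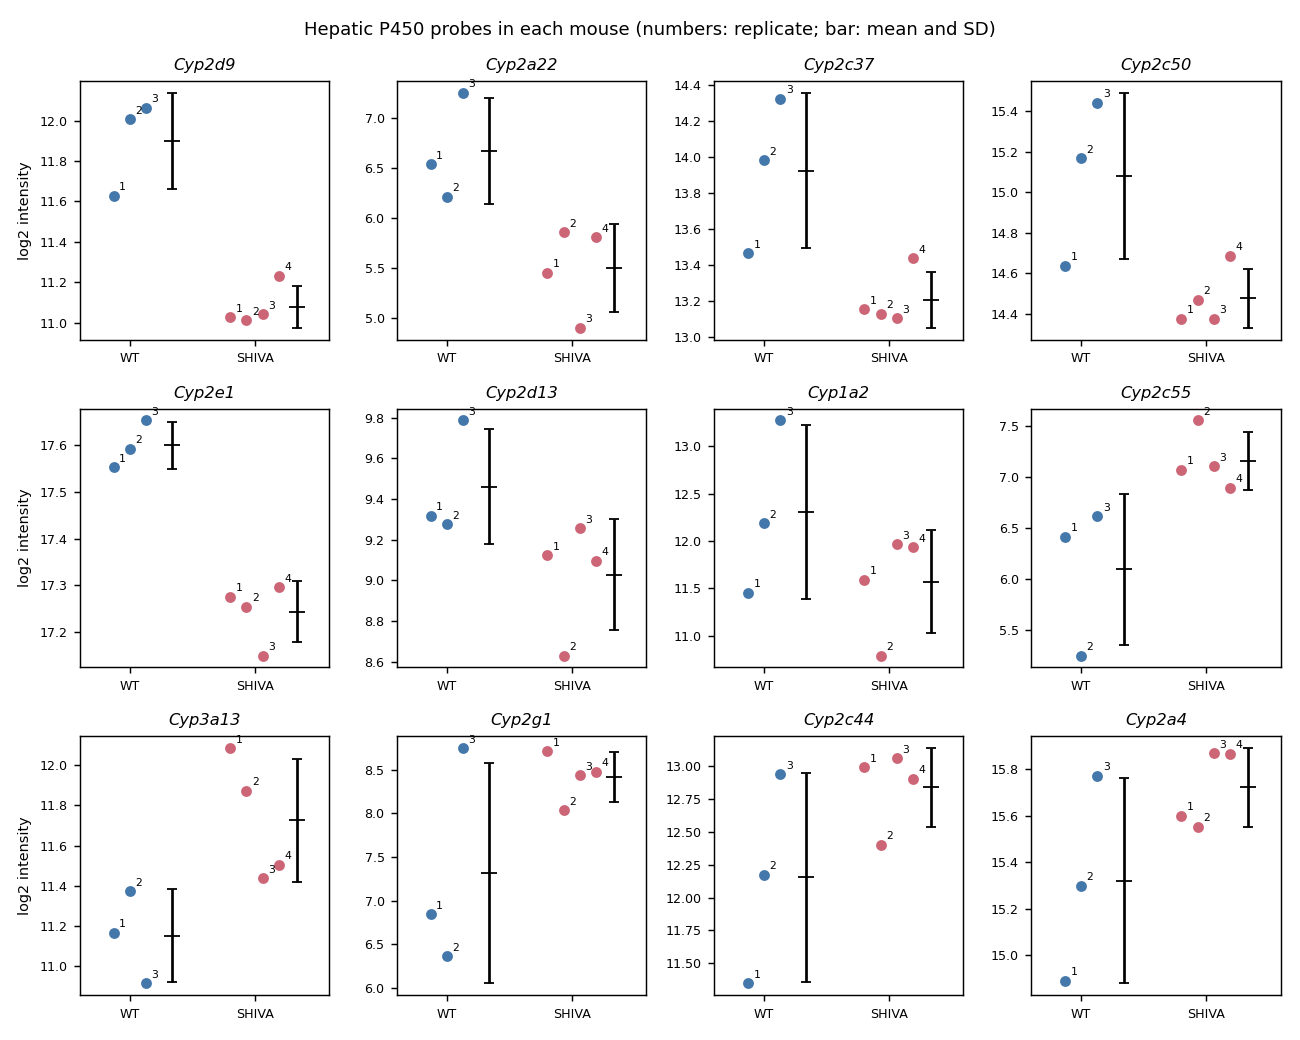
Log2 intensity (y axis) of 12 P450 genes in each of the 3 WT and 4 SHIVA mice (x axis), numbered by replicate, with the mean and SD beside the points; each panel has its own scale. Cyp2d9, Cyp2a22, Cyp2c37, Cyp2e1 and Cyp2d13 are lower in every SHIVA mouse, Cyp2c55 and Cyp3a13 higher, and WT mouse 3 stands apart from the other WT mice for Cyp2g1.

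The 4 Cyp2j genes, epoxygenases of fatty acids, lay between -0.07 and 0.29. Over the 11 tested epoxygenases of the Cyp2c and Cyp2j subfamilies the median was -0.05, with 5 above and 6 below 0. Cyp2r1, a vitamin D 25-hydroxylase, was at -0.07 on its main probe and at 0.05 on the second, the only member whose probes differed in sign among 13 compared. Of the genes found mainly outside the liver, 3 of 7 were tested: Cyp2g1 above, the Ahr-controlled Cyp2s1 at -0.27, and Cyp2c66. The Cyp2c66 probe was well above background in only 2 WT mice and 1 SHIVA mouse, so its fitted value of -0.75 rests on signals near background, and it was -0.21 on the mean signal and -0.09 after normexp correction. Cyp2t4 was at 0.13.

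Cyp2u1, a fatty acid hydroxylase, needs its probe beside its value. The probe with the highest signal, at chr3:130996343-130996402 on the minus strand of mm9, holds an unbroken run of 32 bases in which T and G alternate. It gave a log2 fold change of 0.36 (unadjusted p of 0.0470, adjusted p = 0.369). On the array 18 probes, each of a different gene name, held a T and G or C and A run at least as long. All 18 were well above background on every array, beside 40.4% of all probes, with a median level of 16.08 beside 3.06, and their median log2 fold change was 0.53 beside -0.0025 over all probes, with 15 of the 18 above 0. The other Cyp2u1 probe, with a longest such run of 2 bases, read 4.36, 4.06 and 3.95 in WT and 5.21, 5.0035, 5.55 and 4.87 in SHIVA mice. All SHIVA mice lay above all WT mice on it, with a difference of 1.03. Whether the main Cyp2u1 probe binds other transcripts with the same repeat was not tested.

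WT mice 1 and 3 stood at opposite ends of the WT group across the members. WT mouse 1 had the lowest of the 3 WT values for 36 of the 46 tested members (78.3%), beside 34.9% of all genes tested, and WT mouse 3 had the highest for 30 (65.2%), beside 34.8%. Of all 7 mice, WT mouse 1 was the lowest for 18 members and WT mouse 3 the highest for 18. The median deviation of the members from their own mean over the 7 mice was -0.28 in WT mouse 1, 0.11 in WT mouse 2 and 0.25 in WT mouse 3, and it lay between -0.13 and 0.05 in the SHIVA mice. The SD was larger among WT than among SHIVA mice for 32 of the 46 members, with medians of 0.368 and 0.241; over all genes the medians were 0.251 and 0.229, and 55.3% had the larger SD in WT. These shares are descriptions of 7 arrays, since the members of a mouse come from the same RNA. Left out in turn, WT mouse 1 and WT mouse 3 moved the members' median the furthest apart, to -0.15 and -0.04.

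**Figure D4:**
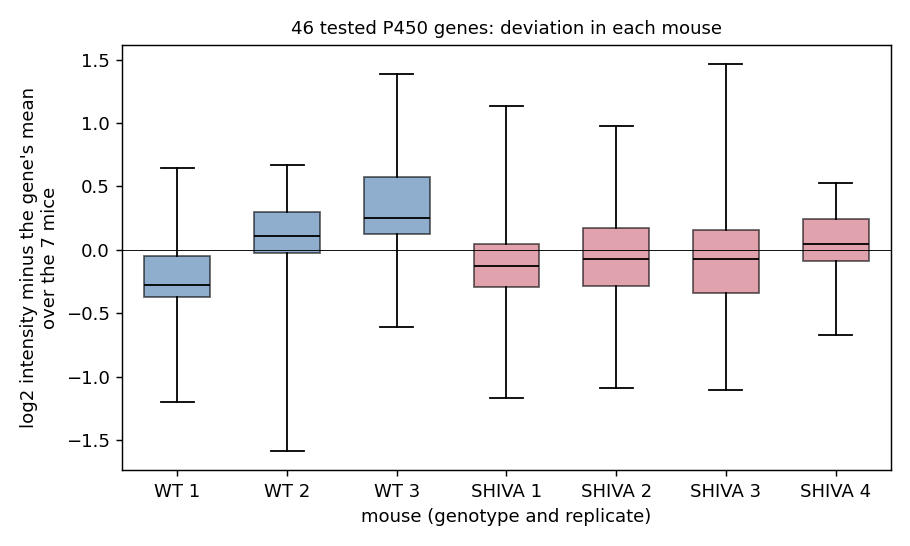
Deviation of the log2 intensity of each of the 46 tested P450 genes from its own mean over the 7 mice (y axis), for each WT and SHIVA mouse (x axis); boxes show the quartiles, the centre line the median and whiskers the full range. The medians are -0.28 in WT mouse 1 and 0.25 in WT mouse 3, with the 4 SHIVA mice between -0.13 and 0.05.

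The receptors and partners of the P450 system were read from lists of 57 genes, of which 52 were on the array and 50 were tested. None was called by limma, nor by the unpaired test of the study's methods. With limma, 11 of the 50 had an unadjusted p under 0.05, beside 13.3% of all genes. With the unpaired test, 9 of the 50 (18%) did, beside 11.5% of all genes. The median log2 fold change was -0.16, with 36 genes below 0. The nearest to the threshold was Nr1i3, which encodes CAR. It read 13.04, 13.12 and 13.06 in WT and 11.90, 12.15, 11.98 and 12.39 in SHIVA mice. The WT mice lay close together and every SHIVA mouse lay well below them. The difference was -0.97 (SE 0.158) on the log2 scale with an adjusted p of 0.0543. It was called in 6 of 17 alternatives, and over all 17 its values ran from -1.06 to -0.90. The 6 include the mean signal and normexp correction, which start from the same spot signal.

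Other receptors differed less. Ppara, the fatty acid receptor of the fasting liver, read 12.19, 12.61 and 12.33 in WT and 11.66, 11.75, 11.64 and 11.78 in SHIVA mice. Its ranges were separate and the log2 fold change was -0.67 (adjusted p = 0.132). PXR (Nr1i2) was at -0.24 (adjusted p = 0.702) and Hnf4a, a core hepatocyte regulator, at 0.14. Esr1, the oestrogen receptor alpha, was at 0.53 with separate ranges, and Ahr was at 0.54 with overlapping ranges (adjusted p of 0.262 and 0.307). For Ahr the mean of its 2 probes gave 0.37 (limma's adjusted p = 0.705). The 6 tested genes of the Ahr list had a median of -0.001, and its targets Aldh3a1, Nqo1 and Tiparp were at -0.21, -0.02 and 0.02.

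The electron and heme supply had 13 tested genes, 10 below 0, with a median of -0.07. Por read 12.42, 13.17 and 11.84 in WT and 12.11, 12.06, 11.79 and 12.21 in SHIVA mice, a difference of -0.43 on the log2 scale (adjusted p = 0.569) that was -0.09 without WT mouse 2 and -0.75 without WT mouse 3. The SHIVA values lay inside the range of the WT mice but for SHIVA mouse 3, which was just under it. Cpox, a late enzyme of heme synthesis, was at -0.81 and Hmox1, which breaks heme down, at 0.45; neither was called, and Alas1, the rate-limiting enzyme, was at -0.18.

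**Figure D5:**
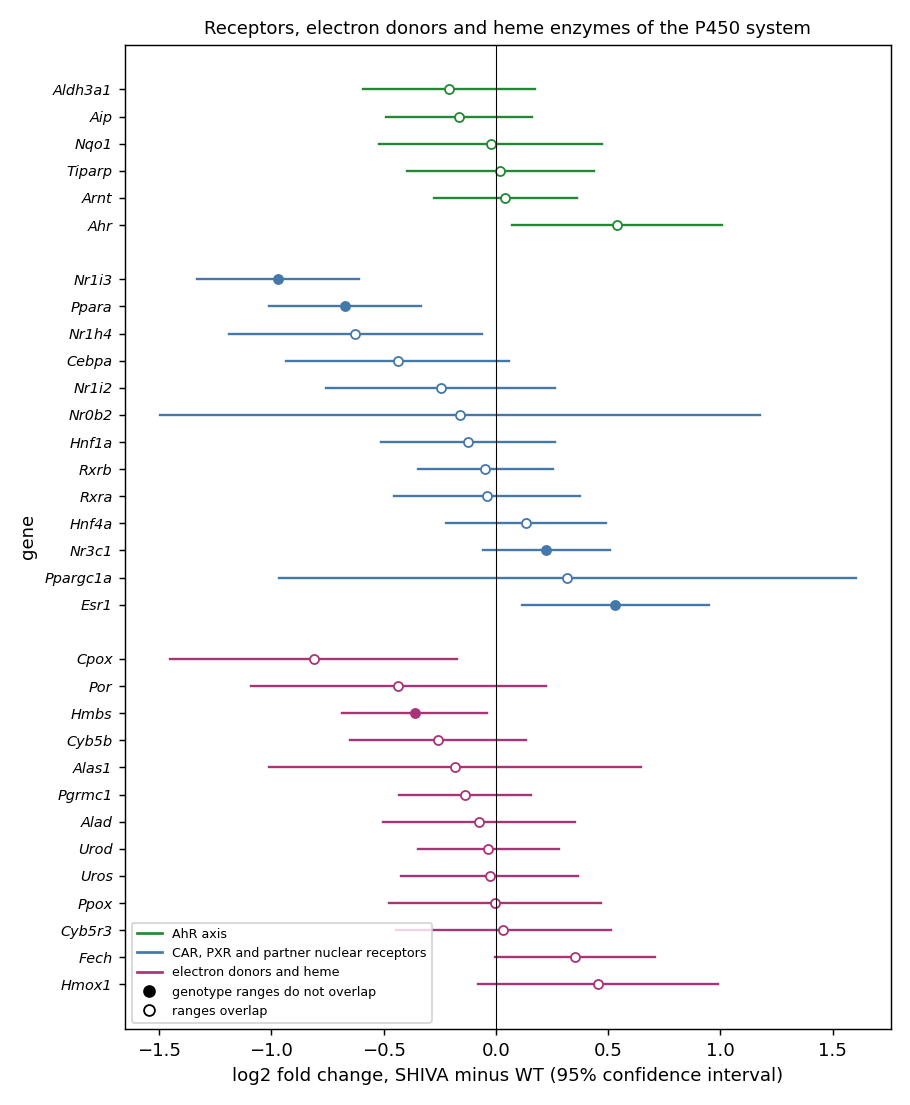
Log2 fold change (SHIVA minus WT, x axis, with 95% confidence intervals from limma) of the tested genes of the Ahr axis, the CAR, PXR and partner receptors, and the electron donors and heme enzymes (y axis); filled points mark genes whose WT and SHIVA values do not overlap. Nr1i3 at -0.97 lies furthest from 0.

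Markers of other liver cells were read beside these values. All 5 Kupffer cell and macrophage markers had log2 fold changes above 0, from 0.09 to 1.54 with a median of 0.66, none called, and their summed signal spanned 13.59 to 14.77 in WT and 14.13 to 15.41 in SHIVA mice. The haemoglobin genes Hba-a1 and Hbb-b1 were at 0.43 and 0.64. Their summed signal spanned 15.58 to 16.04 in WT and 15.88 to 16.79 in SHIVA mice. The summed signals of the 4 endothelial and 3 stellate cell markers spanned 13.17 to 13.27 and 7.08 to 7.74 in WT, and 12.77 to 13.21 and 7.34 to 7.73 in SHIVA mice. Of 4 biliary markers 3 were tested, Krt19 at -0.73, Krt7 at -0.81 and Sox9 at 0.60, and the summed signal spanned 6.91 to 8.09 in WT and 6.40 to 7.26 in SHIVA mice. Amy2a5, the only pancreatic marker tested, was at 0.05. The summed signals of the genotypes overlapped for each of these lists. Singly, the tested markers with separate ranges were Hbb-b1 and the stellate marker Des, the latter at -0.24. The part of these cell types in the P450 values was not tested.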

How the data were processed

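Total liver RNA of 3 WT and 4 SHIVA mice was labelled with Cy3 and hybridised to single-colour Agilent arrays, 1 mouse per array. The deposited scanner files hold linear spot intensity from Agilent Feature Extraction 10.5.1.1, detrended within the array, with no local background subtraction and no normalization between arrays. The authors also deposited a table of log2 values, described as quantile normalized, which was used only as an alternative.

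Flagged spots (120 to 163 per array) were set to missing. Processed intensities of 59305 spots were quantile normalized, put on the log2 scale and averaged over the spots of each of 55681 probes. The probe with the highest mean stood for a gene. Genes well above background on at least 3 arrays (19974) were tested with limma 3.58.1 in R 4.3.3, with Benjamini-Hochberg adjustment over all of them and calls at 0.05. The fit was tested on simulated data: of 200 genes changed by 2 log2 units among 19974, 88.5% were recovered, all in the right direction. Of the simulated calls, 4.84% were false. The tested members ranged from -1.16 to 1.097 log2 units, and recovery of changes of that size was not tested.

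Named genes were the members called, those without overlap between the genotypes, those with an absolute log2 fold change of at least 1, the largest of each subfamily and the role groups, plus called, largest and central genes of the partner lists; a few others were named after their values were seen. The members and lists were chosen with earlier results of these data known. Listed genes whose names the array did not carry, Cyp2a5, Cyp2c40, Cyp2c69 and Cyp3a41 among them, were not analysed here. Alternatives were 75th percentile scaling, the mean signal without background correction, normexp correction with an offset of 50, and the deposited log2 table. Further alternatives were other filters on dim probes, the mean of a gene's probes, updated names (RefSeq, GRCm38.p6) and the replicate number as a block. The methods' t-test and leaving out each mouse were also used. That the mice were separate animals is given by the labels, and the number of arrays limits the precision.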

Additional observations from a re-analysis of the deposited data

Results flagged for a closer look

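In the 4 SHIVA mice, 5 of 46 named genes had 1 mouse whose gap to the nearest other mouse exceeded Dixon's 95% critical value for the range of the group; chance flags about 1 in 20 groups, or 2.3 of 46. Cyp2d9 read 11.23 in SHIVA mouse 4, beside 11.01 to 11.04 in the others. Cyp2c37 read 13.44 in SHIVA mouse 4, beside 13.10 to 13.15, and the aldehyde oxidase gene Aox1 read 10.15 in SHIVA mouse 4, beside 9.58 to 9.62. In these 3 genes the deviant mouse was the SHIVA mouse nearest to the WT mice, and each remained below every WT mouse. Cyp3a25 read 13.14 in SHIVA mouse 3, beside 13.55 to 13.62. Keap1, the inhibitor of NRF2, read 10.25 in SHIVA mouse 2, beside 11.50 to 11.73.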

How the results depend on the processing

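The members' median log2 fold change stayed below 0 under all 17 alternatives, from -0.15 without WT mouse 1 to -0.04 without WT mouse 3. The count of members called went from 0 to 1 on the mean signal, with normexp correction and in the deposited log2 table, where 1 member, Cyp2d9, was called lower. Leaving out single mice, 0 to 1 members were called, and 0 to 1 called higher, the 1 being Cyp2g1 without WT mouse 3. Of the partner and regulator genes, 1 (Nr1i3) was called on the mean signal, with normexp correction, in the deposited table and with probes above background on all 7 arrays, and 0 to 3 with a mouse left out: Nr1i3, Cpox (-1.15) and Nfe2l2 (1.12) without WT mouse 3, and Nr1i3 without SHIVA mouse 4. Over all genes 75 were called, beside 142 on the mean signal, 129 in the deposited table, 13 with no filter on dim probes, 0 by the methods' t-test after adjustment (2299 at the unadjusted threshold), and 3 (without WT mouse 1) to 414 (without WT mouse 3) with a mouse left out; they were 8 without WT mouse 2, 7 without SHIVA mouse 1 and 13 without SHIVA mouse 3. The cause was not tested.

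With the replicate number as a block, which drops SHIVA mouse 4 for want of a pair, 32 genes and 0 members were called. The numbers were not taken as pairs: the correlations of deviations from the group means were -0.049, 0.012 and 0.236, and the number is also the column of the slide. Under the block, Cyp2j9 turned to 0.042 and Cyp3a11 to -0.0985.

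The other changes of sign were in 12 genes, none of them called, with log2 fold changes between -0.17 and 0.18 apart from Keap1 at -0.35. Cyp3a11 was at -0.0258 with 75th percentile scaling. On the mean signal, with normexp correction and in the deposited table respectively, Cyp2c38 was at 0.0443, 0.0437 and 0.0509, Cyp2j5 at -0.0446, -0.0186 and -0.0472, and Cyp3a25 at 0.0456, 0.0450 and 0.0725. With each mouse left out, the values ran from -0.4006 to 0.1464 for Cyp2b9, -0.2981 to 0.0438 for Cyp2c29, -0.3464 to 0.2537 for Cyp2c38, -0.1544 to 0.3382 for Cyp2f2, -0.1287 to 0.1395 for Cyp2j5, -0.3884 to 0.228 for Cyp2j9, -0.1861 to 0.0214 for Cyp2r1, -0.1695 to 0.2643 for Cyp2t4, -0.1212 to 0.1494 for Cyp3a11, -0.068 to 0.3561 for Cyp3a16, -0.2376 to 0.1281 for Cyp3a25 and -0.4936 to 0.0005 for Keap1. With updated names there were 54 members, 47 of them tested, of which Cyp2c23 replaced Cyp2c44 and Cyp2j8 and Cyp2j11 were added.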

Other observations

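Other drug-metabolising enzymes outside the P450 family were read from a list of 16 genes, of which 12 were on the array and tested. None was called by limma, and 3 of the 12 had an unadjusted p under 0.05, beside 13.3% of all genes. Of the 12, 10 had log2 fold changes below 0, and the median was -0.31. These 10 include the epoxide hydrolases Ephx1 and Ephx2, which are not oxidising enzymes, at -0.25 and -0.40. Fmo2, a flavin monooxygenase, read 9.69, 9.42 and 9.21 in WT and 8.20, 7.46, 8.20 and 9.26 in SHIVA mice. SHIVA mouse 4 lay within the WT range while the others lay below it, and the log2 fold change was -1.16 (adjusted p = 0.239). Aox1 was at -0.69 (adjusted p = 0.199) and Aldh1a1, which oxidises retinal, at -0.58 (adjusted p = 0.180), both with separate ranges.

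The NRF2 axis, which controls antioxidant and conjugating genes, had 6 tested genes, none called by limma, with a median of -0.21. Nfe2l2, which encodes NRF2, read 9.04, 9.03 and 10.08 in WT and 10.20, 10.39, 10.23 and 9.80 in SHIVA mice. WT mouse 3 lay among the SHIVA mice, and the log2 fold change was 0.77 (adjusted p = 0.282). Its target genes Gclc, Gclm, Srxn1 and Txnrd1 were at 0.13, -0.25, -0.29 and -0.17.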
